A study of Homo sapiens with 3 samples.

Results

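In RCC4 cells exposed to IFN-gamma and TNF, a few chemokine ligands were abundant, while 1 chemokine receptor of 22 was detected. A listed 0 cannot be read as absence, least of all for the 9 of the 22 that lie mostly inside other genes. CCL2, the main attractant of monocytes, CX3CL1, the membrane-bound fractalkine, and CXCL5, a neutrophil attractant, together made up 91.3% ± 1.13 of the ligand signal that was counted (SD, n = 3). This share is of depth-scaled reads and not of reads per kilobase, so long transcripts such as that of CX3CL1 weigh more in it. The ligand signal holds no reads of 22 ligands. Of these, 10 lie mostly inside other genes, CXCL10 and CXCL11 among them, and their level is not known from these files. The 0 of the other 12 is given as listed. The chemokine genes were taken by symbol: 43 ligands (CCL, CXCL, CX3CL and XCL with a number) and 22 receptors (CCR, CXCR, CX3CR, XCR and the atypical ACKR), or 65 of the 60605 genes in the table. The naming rule uses no measured value.

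Chemokines are small secreted proteins that steer leukocyte migration through G protein-coupled receptors, and their families are named for the spacing of conserved cysteines (C, CC, CXC and CX3C). CXC ligands with a glutamate-leucine-arginine (ELR) motif before the cysteines act on neutrophils through CXCR1 and CXCR2. CXCL9, CXCL10 and CXCL11 are interferon-inducible and attract activated T cells through CXCR3. Epithelial cells and renal tumour cells are known sources of several ligands, and NF-kappa-B, a transcription factor that TNF activates, is known to act on many of their genes.

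RCC4 is a clear cell renal carcinoma line that lacks functional VHL protein. The cells had been transduced earlier with a Cas9 lentivirus. The study has 1 group of 3 libraries, each from cells given IFN-gamma at 1000 U/mL plus TNF at 25 ng/mL for 24 h, with 3 flasks per replicate. Untreated cells were not analysed here, so every value is a level in treated cells and not a response. With 1 group there was no test between conditions, and the error is the spread over the 3 replicates.

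Gene-assigned reads numbered 29199806 in replicate 1, 26264283 in replicate 2 and 33458691 in replicate 3. CPM is a library's reads scaled to a common depth with TMM, RPKM is CPM per kilobase of a gene's exons, and a gene was called detected at 1 CPM or more in every library. A count of 0 allows up to 3 reads, or 0.110, 0.110 and 0.0862 CPM on the TMM scale in replicates 1, 2 and 3, for counting error only. Of the renal carcinoma markers 7 of 8 were detected, with a summed level between 1396 and 1891 CPM. Of 10 leukocyte markers 2 were detected (ITGAM and CSF1R), with a summed level between 5.08 and 6.19 CPM, and PTPRC, CD3E and MS4A1 were listed at 0. The 5 endothelial markers summed to at most 0.515 CPM, with KDR and EMCN listed at 0. The 5 fibroblast markers summed to between 7.68 and 9.32 CPM, with COL1A1 detected and COL1A2 and LUM listed at 0. The part of other cells in the chemokine levels was not tested, and in bulk RNA fewer expressing cells and less RNA per cell cannot be told apart. Replicate 1 stood apart from replicates 2 and 3 over all genes. Reads of chemokine genes are therefore given per library, and detection and the order of levels were also taken without it.

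Of the 65 chemokine genes 11 were detected (16.9%), against 51.4% of all protein-coding genes and 18.6% of all 60605 genes. The 11 were 10 of 43 ligands and 1 of 22 receptors. A further 5 genes reached 10 reads in 1 library or more, 10 had between 1 and 9 reads at most, and 39 were listed at 0 reads in every library. The median level over the 65 genes was 0 RPKM, against 0.482 RPKM over protein-coding genes. The 11 detected members had a median of 9.89 RPKM, against 6.09 RPKM for detected protein-coding genes, a comparison that the detection threshold shapes on both sides. All ligands together gave 884, 917 and 900 CPM in replicates 1, 2 and 3, a mean of 900.1 ± 16.7 CPM (SD, n = 3). All receptors together gave 5.23, 6.85 and 4.89 CPM.

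**Figure D1:**
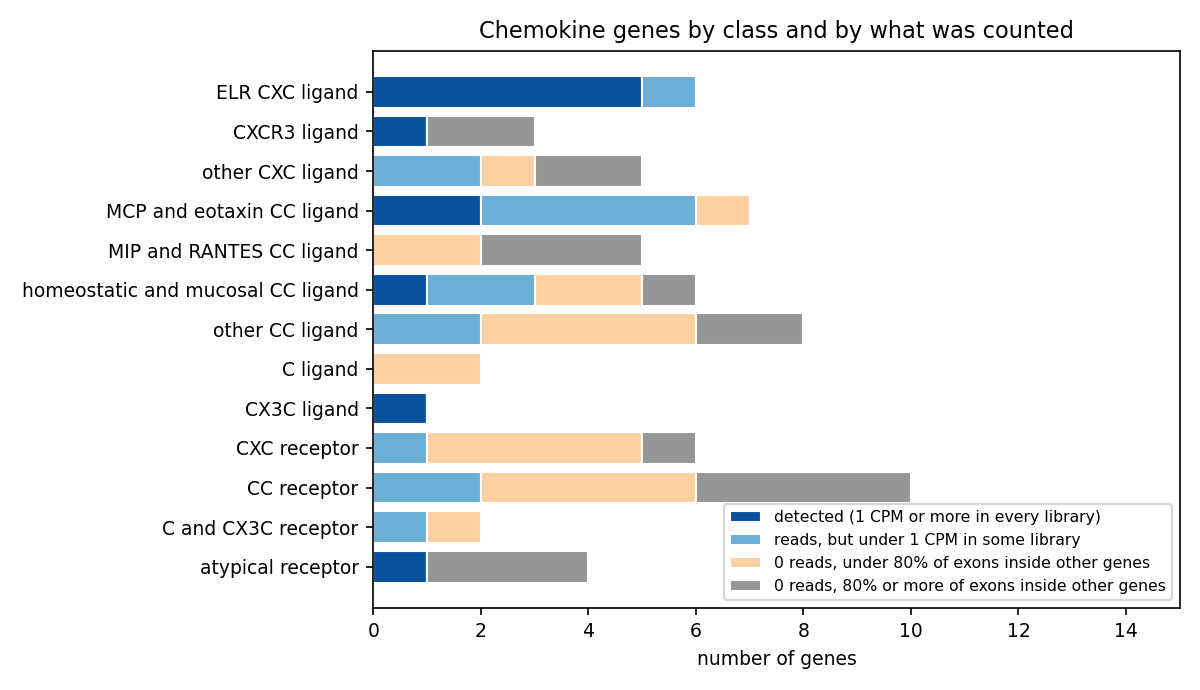
Number of chemokine genes (x axis) in each class (y axis), coloured by whether the gene was detected, had reads below that threshold, or was listed at 0 reads in every library, split by whether other genes span 80% or more of its exons. Detected genes fall in 6 of the 13 classes, and 5 of the 11 are ELR CXC ligands.

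A listed 0 could not be read as absence. Genes that every cell uses, such as RPL15, RPL32 and RPS4X, were at 0 reads in each library and lie wholly inside other genes, and SDHA was at 0 without any overlap. For 20 chemokine genes other genes span 80% or more of the exon length (called covered below), a share of 30.8% against 16.0% of protein-coding genes. Of these 20, 1 was detected (8.69% of covered protein-coding genes were) and 18 were listed at 0 in every library, against 72.8% of covered protein-coding genes. Over covered genes of all types, 1.61% were detected and 93.4% were at 0. Of the 45 other chemokine genes 21 were listed at 0, against 20.3% of protein-coding genes that are not covered. Detection was 10 of these 45 genes (22.2%), against 59.5% of protein-coding genes that are not covered. Over genes of all types that are not covered, 29.4% were detected and 48.8% were at 0. All 13 chemokine genes lying wholly inside other genes were at 0. For 14 of the 20 covered genes the overlapping genes all lie on the opposite strand. The kit was directional, but no source used here states whether the counting used strand.

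**Figure D2:**
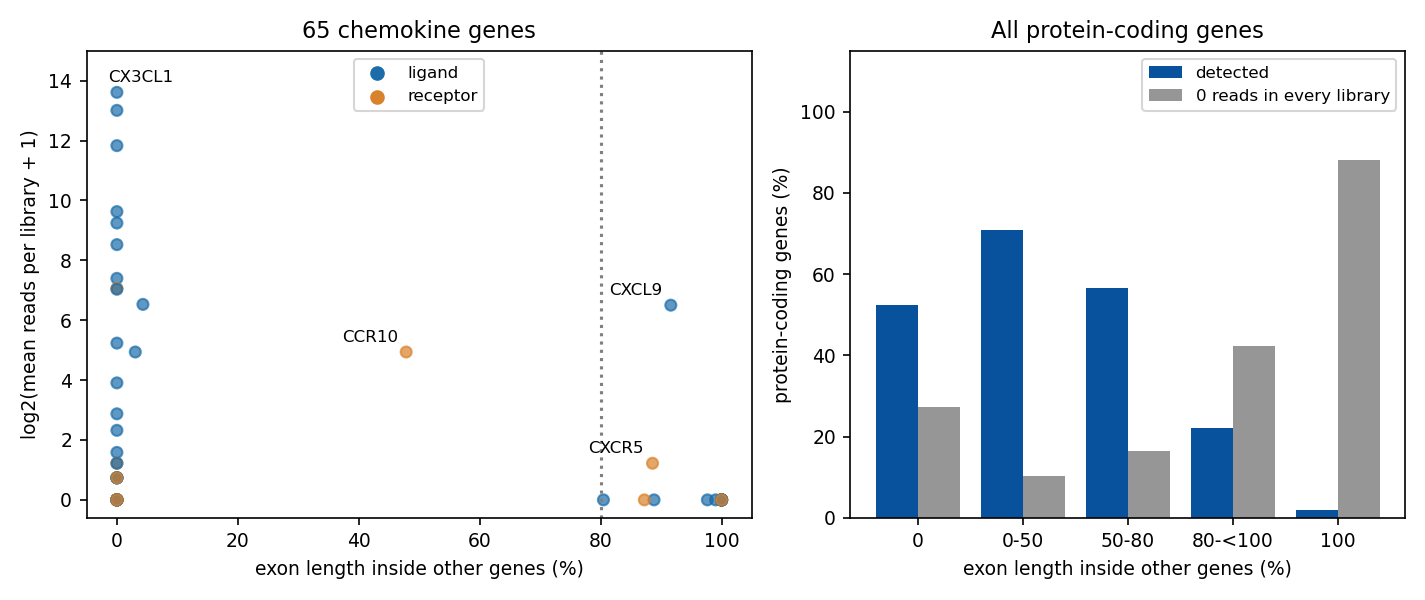
Left, the 65 chemokine genes by the share of exon length inside other genes (x axis, %) and by reads (y axis, log2 of the mean over 3 libraries plus 1), with a dotted line at 80%. Right, the share of all protein-coding genes (y axis, %) that were detected or at 0 reads, in bins of the same overlap. CXCL9 and CXCR5 are the 2 covered chemokine genes with any reads.

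All 6 ELR CXC ligands under the naming rule had at least 10 reads and 5 were detected. They lie within 359 kb of chromosome 4, and none is covered. The 120 bases before the RefSeq start of each gene are shown because all 6 hold the same 9 letters at nearly the same distance, GGAATTTCC, marked in capitals. The sequences are from RefSeq (GRCh38.p14), 5′ to 3′ on the strand of the gene.
CXCL5 (chr4:73998678-73998797, minus strand): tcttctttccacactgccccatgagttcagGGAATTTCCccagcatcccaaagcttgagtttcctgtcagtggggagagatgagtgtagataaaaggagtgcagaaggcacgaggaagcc
CXCL6 (chr4:73836558-73836677, plus strand): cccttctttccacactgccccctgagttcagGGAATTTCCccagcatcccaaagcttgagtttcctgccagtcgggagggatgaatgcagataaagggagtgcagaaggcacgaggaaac
CXCL2 (chr4:74099196-74099315, minus strand): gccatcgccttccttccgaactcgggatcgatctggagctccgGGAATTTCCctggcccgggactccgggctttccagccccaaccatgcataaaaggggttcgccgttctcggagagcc
CXCL1 (chr4:73869273-73869392, plus strand): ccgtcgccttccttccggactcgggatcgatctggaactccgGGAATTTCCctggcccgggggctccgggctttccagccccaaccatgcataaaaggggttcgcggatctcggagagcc
CXCL3 (chr4:74038690-74038809, minus strand): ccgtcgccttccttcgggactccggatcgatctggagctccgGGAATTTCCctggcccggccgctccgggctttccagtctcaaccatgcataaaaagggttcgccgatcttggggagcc
CXCL8 (chr4:73740449-73740568, plus strand): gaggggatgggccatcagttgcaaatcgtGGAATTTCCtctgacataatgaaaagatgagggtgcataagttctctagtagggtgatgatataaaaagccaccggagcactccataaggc

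The match begins 90 bases before the start of CXCL5, 89 before CXCL6, 77 before CXCL2, 78 before CXCL1 and CXCL3, and 91 before CXCL8. The 250 bases before each start were searched for 5 patterns, and a match is a description of letters and not a site. GGANTTNCC, an NF-kappa-B type pattern read on both strands, occurs in 3.67% of the 35116 promoters in the table and in 11 of the 58 promoters of the 44 chemokine genes found there, 1 for each of 11 genes. The other 5 of these 11 are CXCL10, CXCL11, CCL15, CCL23 and CXCR3, all of them listed at 0 reads. A longer form with a G added in front occurs in 1.26% of promoters and in 7 of the 58, which include those of CXCL1, CXCL2, CXCL3, CXCL5 and CXCL6 but not CXCL8. Both forms were searched, and the shorter was taken for the printed capitals after the matches of both had been seen, so the match in all 6 genes depends on that choice. TTCNNNGAA, the gamma-activated sequence (GAS) type pattern, occurs in 6.57% of promoters and in 13 of the 58, among them those of CXCL5 and CXCL6, where it overlaps the capitals. The interferon-stimulated response element (ISRE) type pattern occurs in 3.02% of promoters and in 4 of the 58, those of CXCL9, CXCL10, CCR6 and XCR1. TATAAA, on the strand of the gene, occurs in 6.8% of promoters and in 16 of the 58. The 6 stretches are not independent. CXCL5 and CXCL6 share 90.9% of their aligned letters, and CXCL1 shares 93.4% with CXCL2 and 90.8% with CXCL3, while CXCL8 shares 46.1% to 52.1% with the others. No binding was measured. ACKR3, CCL2, CCR10, CX3CL1 and CXCL16 had reads but no entry in the table.

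CXCL5 (ENSG00000163735.7, GRCh38 chromosome 4, 73995642 to 73998779, minus strand) was the highest ELR ligand, with 3017, 3171 and 4739 reads in replicates 1, 2 and 3. Its level was 43.8, 46.0 and 53.7 RPKM, a mean of 47.8 ± 5.19 RPKM (SD, n = 3), above 91.4% of detected protein-coding genes. The 3 libraries lay close together as scaled here, but after correction for the GC content of transcripts the level was 50.5 ± 21.7 RPKM. CXCL5 supplied 68.5% ± 2.52 of the CPM of its class. CXCL8, or interleukin-8, the prototype neutrophil attractant (73740506 to 73743716, plus strand), had 578, 700 and 1092 reads and a level of 9.36, 11.3 and 13.8 RPKM. In each library CXCL5 exceeded CXCL8, by 2.06 ± 0.14 on the log2(RPKM + 0.1) scale, more than 2 SD from 0. CXCL6, whose coding sequence matches that of CXCL5 in 87.4% of aligned bases, had 70, 102 and 102 reads and 1.181, 1.72 and 1.34 RPKM. CXCL5 exceeded CXCL6 by 4.99 ± 0.29 (log2), also in every library.

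CXCL1, CXCL2 and CXCL3, the GRO ligands of CXCR2, differed in level and have similar coding sequences. CXCL2 (74097035 to 74099293, minus strand) had 383, 624 and 811 reads and a level of 9.40, 15.3 and 15.5 RPKM, lowest in replicate 1. CXCL1 (73869393 to 73871242, plus strand) had 155, 124 and 224 reads and 4.40, 3.52 and 4.97 RPKM. CXCL3 (74036589 to 74038807, minus strand) had 24, 40 and 46 reads and 0.398, 0.664 and 0.596 RPKM, and replicate 1 fell below 1 CPM. CXCL2 exceeded CXCL1 by 1.60 ± 0.51 and CXCL3 by 4.36 ± 0.12 on the log2(RPKM + 0.1) scale, with the same sign in all libraries. Their coding sequences of 321 bases are 90.7% to 94.4% identical in pairs. Bases 91 to 180 of each coding sequence (GENCODE 29, GRCh38, chromosome 4) are shown with the 5 positions that differ among the 3 in capitals. This stretch is more alike than the whole coding sequence, where 34 of 321 positions differ.
CXCL1: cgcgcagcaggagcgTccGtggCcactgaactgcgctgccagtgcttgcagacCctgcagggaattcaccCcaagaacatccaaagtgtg
CXCL2: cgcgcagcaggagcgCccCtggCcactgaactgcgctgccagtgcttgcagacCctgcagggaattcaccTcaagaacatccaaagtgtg
CXCL3: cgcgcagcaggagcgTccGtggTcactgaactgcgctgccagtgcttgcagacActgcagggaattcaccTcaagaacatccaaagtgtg
Reads from stretches such as these can fit more than 1 of the genes, and no source used here states how the authors treated them. The split among CXCL1, CXCL2 and CXCL3 is therefore uncertain, and that between CXCL5 and CXCL6 to a lesser degree.

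**Figure D3:**
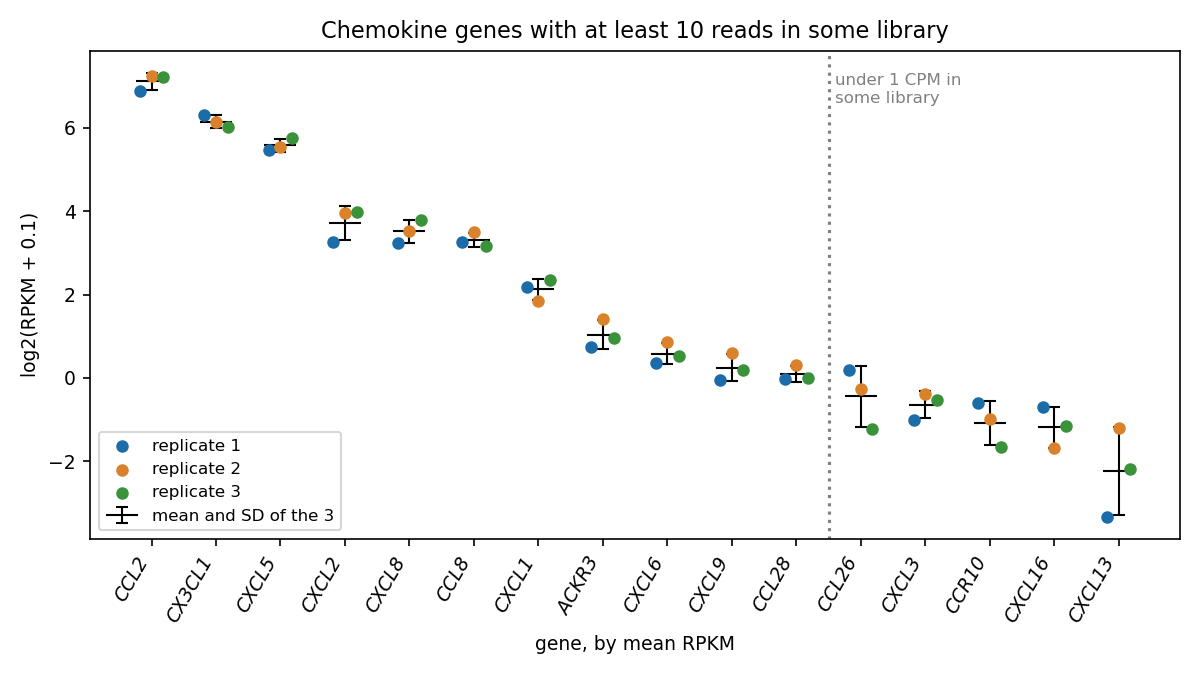
Level of the 16 chemokine genes that reached 10 reads in 1 library or more, as log2(RPKM + 0.1) (y axis), ordered by mean RPKM (x axis). Coloured points are the 3 replicates, black bars their mean and SD, and genes right of the dotted line were under 1 CPM in at least 1 library. CCL2, CX3CL1 and CXCL5 lie above all others in every library.

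The CXCR3 ligands were hardly measurable. CXCL9 (76001275 to 76007488, minus strand of chromosome 4) had 65, 105 and 99 reads, or 1.11 ± 0.275 RPKM (SD, n = 3). It has 91.6% of its exon length inside SDAD1-AS1, a noncoding gene on the opposite strand that itself had 0, 4 and 0 reads. Scaled to the exon length outside that gene, the CXCL9 level would be 13.2 RPKM. CXCL10 and CXCL11 were listed at 0 reads in each library. Both lie wholly inside ART3, a gene on the opposite strand, which had 188, 286 and 476 reads in replicates 1, 2 and 3. Reads from a gene and its antisense partner cannot be told apart without strand, so the level of CXCL10 and CXCL11, and that of ART3, is not known from these files.

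The remaining CXC ligands were low. CXCL16, a membrane-bound ligand of CXCR6, had 39, 16 and 34 reads, or 0.358 ± 0.152 RPKM. CX3CL1, the other membrane-bound chemokine, exceeded CXCL16 by 7.33 ± 0.42 (log2) and did so in every library. CXCL13, a B cell attractant that signals through CXCR5, had 0, 13 and 6 reads, too few for a firm level. CXCL12, the ligand of CXCR4 and ACKR3, was listed at 0 in each library without any overlap. CXCL14 and CXCL17 were also at 0, and both are covered.

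CX3CL1 and CCL2 were the highest of all chemokine genes. CX3CL1 (ENSG00000006210.7, chromosome 16, 57372458 to 57385048, plus strand) had 12874, 11321 and 13340 reads, the largest count of any member in each library. Its level was 79.2, 69.7 and 64.1 RPKM, a mean of 71.0 ± 7.66 RPKM (SD, n = 3). CCL2 (ENSG00000108691.9, chromosome 17, 34255218 to 34257203, plus strand) had 6332, 8150 and 10242 reads and a level of 117, 151 and 148 RPKM, a mean of 139 ± 18.7 RPKM. CCL2 stood above 97.8% of detected protein-coding genes and CX3CL1 above 94.5%. Their order depends on length: per kilobase CCL2 exceeded CX3CL1 by 0.96 ± 0.35 (log2) in every library, whereas in CPM CX3CL1 was higher, at 425 ± 45.9 against 276 ± 37.1 CPM. The exon union is 5983 bases for CX3CL1 and 1986 for CCL2. CX3CL1 was highest in replicate 1 and CCL2 lowest there.

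The other ligands of the CCL2 cluster ranged from moderate to near 0. Within 108 kb of chromosome 17 lie, in order, CCL2, CCL7, CCL11, CCL8, CCL13 and CCL1. CCL8, also called MCP-2 and a ligand of CCR2 among other receptors, had 324, 386 and 392 reads and 9.46, 11.3 and 8.94 RPKM, and the libraries overlapped closely. CCL2 exceeded CCL8 by 3.80 ± 0.22 (log2), in all libraries. CCL7, CCL11 and CCL13, which lie beside them, had 0 to 4 reads per library, and CCL1 was at 0. None of these genes is covered. The coding sequences of CCL7, CCL8, CCL11 and CCL13 are 77.9% to 79.1% identical to that of CCL2. CCL26, the eotaxin-3 gene on chromosome 7, had 20, 14 and 8 reads, and its relative CCL24 was at 0.

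**Figure D4:**
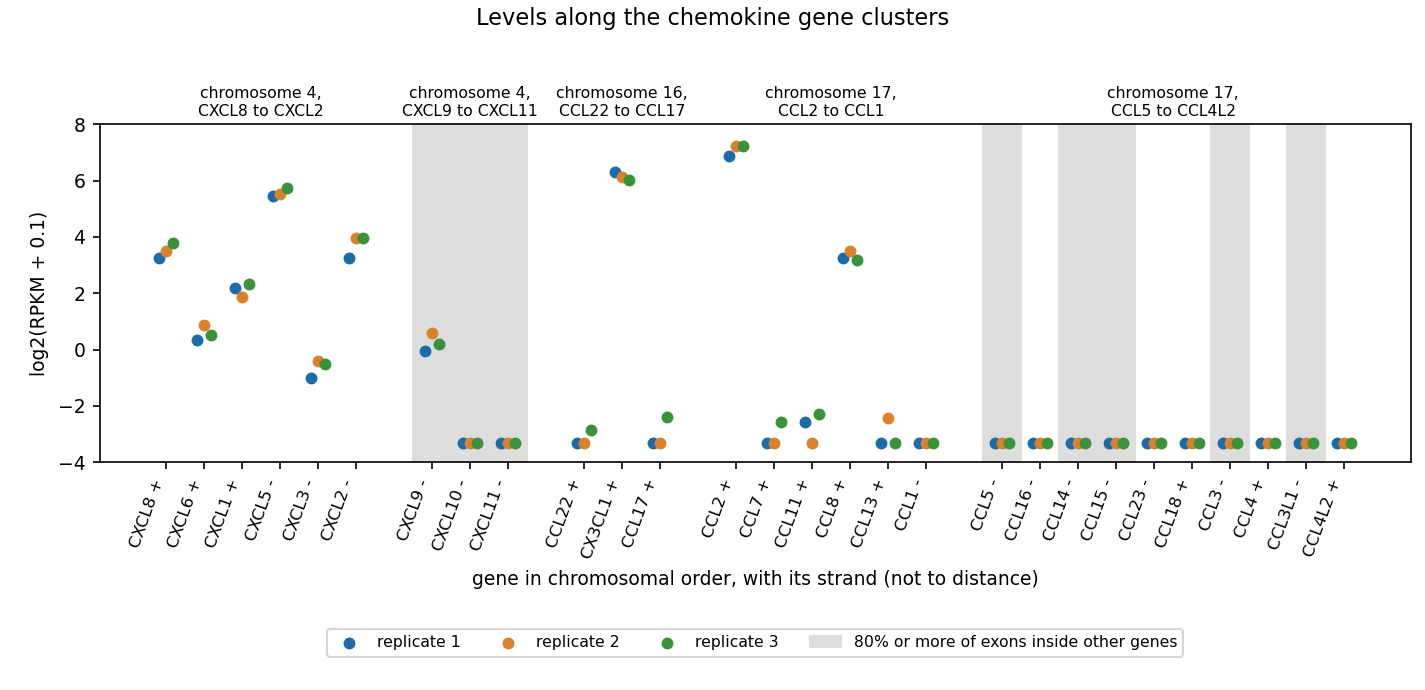
Levels of chemokine genes in their order along 5 clusters (x axis, strand after each symbol), as log2(RPKM + 0.1) (y axis) with 1 coloured point per replicate. Grey marks covered genes. The genes next to CX3CL1 and CCL2 lie at or near 0 reads, CCL8 in the CCL2 cluster does not, whereas all 6 plotted genes from CXCL8 to CXCL2 have reads.

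Chromosomal neighbours differed in like manner around CX3CL1. CCL22 and CCL17, both ligands of CCR4 that attract T helper and regulatory T cells, flank it within 57.3 kb. CCL22 had 0, 0 and 4 reads and CCL17 had 0, 0 and 2 reads, against 11321 or more for CX3CL1. None of the 3 is covered.

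The 10 chemokine genes between CCL5 and CCL4L2 on chromosome 17 were all listed at 0 in every library. They include CCL3, CCL4 and CCL5, which are made by T cells, NK cells and macrophages. CCL5, CCL14, CCL15, CCL3 and CCL3L1 are covered, so their 0 is given as listed. CCL4, CCL4L2, CCL16, CCL18 and CCL23 lie outside other genes, and their 0 is also given as listed. CCL3 and CCL3L1 are near-identical copies (96.1% of the coding sequence), as are XCL1 and XCL2 (98.5%), which were likewise at 0.

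Of the ligands known from lymphoid organs and mucosa, CCL28 was detected. CCL28, an epithelial chemokine that acts through CCR10 and CCR3, had 109, 140 and 141 reads, or 0.974 ± 0.143 RPKM. CCL20, the ligand of CCR6, had 2, 2 and 8 reads. CCL25 had 0, 0 and 2 reads, and CCL19, CCL21 and CCL27 were at 0, of which CCL27 is covered.

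Among receptors, ACKR3 was detected. ACKR3 (chromosome 2, 236567787 to 236582358, plus strand), an atypical receptor that takes up CXCL11 and CXCL12 without G protein signalling, had 96, 157 and 146 reads. Its level was 1.57, 2.56 and 1.86 RPKM, lowest in replicate 1, and it gave 79.3% ± 10.2 of the summed receptor CPM. That sum holds no reads of 17 of the 22 receptors, and 8 of those 17 are covered. CCR10 had 40, 29 and 20 reads, or 0.397 ± 0.172 RPKM, with 47.8% of its exon length inside other genes. ACKR3 exceeded CCR10 by 2.11 ± 0.69 (log2) in every library. Over the exon length outside other genes CCR10 stood at 0.760 RPKM, the difference was 1.33 ± 0.74, and it was within 2 SD of 0. CCL28 and its receptor CCR10 both had reads in all 3 libraries, but CCR10 fell to 0.575 CPM in replicate 3 and was not detected. CNTNAP1, which overlaps CCR10 on the opposite strand, had 22, 41 and 40 reads. Whether reads of 1 gene were counted for the other was not tested.

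The signalling receptors of the abundant ligands were at or near 0. CCR2, the receptor of CCL2, was listed at 0 in each library, and CX3CR1, the receptor of CX3CL1, had 2, 0 and 0 reads. CXCR1 and CXCR2, which bind the ELR ligands, were at 0, as were CXCR3, CXCR4, CCR3, CCR4, CCR8 and XCR1. None of these 10 genes has exon sequence inside another gene. SDHA was also at 0 without any overlap, so a 0 among them is given as listed and not as absence. CCR7 had 0, 0 and 4 reads, and CXCR5, covered by BCL9L, had 4, 0 and 0. CCR1, CCR6, CCR9, CXCR6, ACKR1, ACKR2 and ACKR4 were listed at 0 and are covered.

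The 11 detected members were ordered by mean log2(RPKM + 0.1), and a step between neighbours was called larger than the replicate spread when its sign was the same in all libraries and its mean exceeded 2 SD. The order was CCL2, CX3CL1, CXCL5, CXCL2, CXCL8, CCL8, CXCL1, ACKR3, CXCL6, CXCL9 and CCL28. Order and calls came from the same libraries, so the direction of each mean step was set by the ordering. No steps among other genes were taken for comparison. Of the 10 steps 5 were called. They were CCL2 over CX3CL1 (0.96 ± 0.35), CXCL5 over CXCL2 (1.86 ± 0.32), CCL8 over CXCL1 (1.19 ± 0.42), ACKR3 over CXCL6 (0.46 ± 0.09) and CXCL6 over CXCL9 (0.34 ± 0.06). With GC correction CXCL5 over CXCL2 was 1.86 ± 0.97 and ACKR3 over CXCL6 was 0.46 ± 0.42, and both lost their calls. The step from CXCL6 to CXCL9 turns round if CXCL9 is scaled to its exon length outside SDAD1-AS1, at 13.2 RPKM. CXCL2, CXCL8 and CCL8 did not differ beyond their spread, at 0.20 ± 0.21 for CXCL2 over CXCL8 and 0.20 ± 0.36 for CXCL8 over CCL8. The steps from CX3CL1 to CXCL5 (0.57 ± 0.30), CXCL1 to ACKR3 (1.08 ± 0.55) and CXCL9 to CCL28 (0.15 ± 0.16) were not called either. Without replicate 2 the step from CCL2 to CX3CL1 was 0.89 ± 0.45 and lost its call, and that from CXCL1 to ACKR3 gained one at 1.40 ± 0.04. Without replicate 3 the step from CX3CL1 to CXCL5 gained a call at 0.73 ± 0.18, and without replicate 1 that from CXCL9 to CCL28 did at 0.24 ± 0.07. An exact sign test over 3 libraries cannot pass a threshold of 0.05, so no p-value is given.

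Replicate 1 was set against the other libraries for each detected chemokine gene. As a log2 ratio, replicate 1 over the mean of the other libraries ran from -0.71 (CXCL2) to 0.24 (CX3CL1) over the 11 detected members, 9 of them below 0. Their median was -0.35, against 0.043 over all detected genes, whose share below 0 was not counted. None of the 11 was past 2-fold, against 13.3% of all detected genes that were lower and 0.186% that were higher. Between replicates 3 and 2, 0 of the 11 were past 2-fold, against 0.0799% of detected genes lower and 0.0799% higher in replicate 3. Over all genes the ratio of replicate 1 to the others followed the GC content of the transcript, with a bin median of -1.41 at 35.8% GC and 0.41 at 65.7% GC. The bin medians were below 0 up to 46.3% GC, and all of the 11 but CX3CL1 and ACKR3 fall in those bins. CXCL8 and CXCL5 have AT-rich transcripts, at 33.4% and 37.6% GC. Their ratios of -0.43 and -0.19 were 0.98 and 0.96 above the medians of their GC bins. CXCL2 (46.0% GC) and ACKR3 (49.3% GC) lay 0.71 and 0.62 below theirs. CCL2 and CX3CL1 lay within 0.08 of theirs. The median coefficient of variation over the 3 libraries was 17.0% for the detected members and 16.7% for all detected genes.

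**Figure D5:**
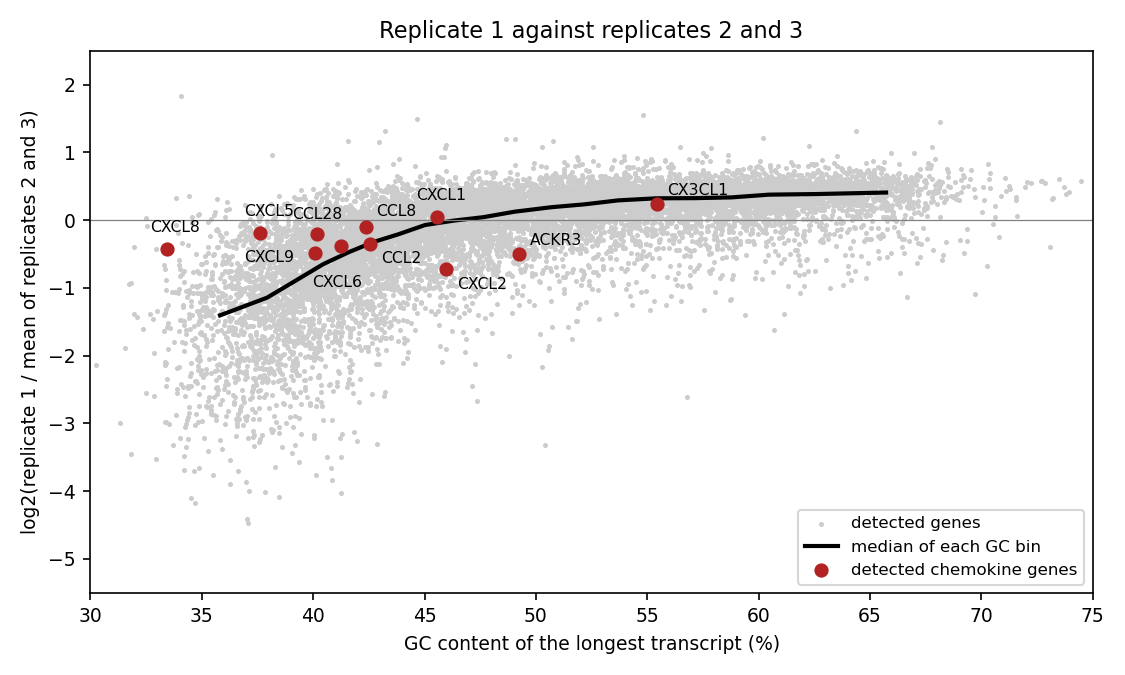
Replicate 1 over the mean of the other libraries, as a log2 ratio (y axis), against GC content of the longest transcript (x axis, %), for detected genes (grey), the medians of 20 GC bins (black line) and the 11 detected chemokine genes (red). CXCL8 and CXCL5 sit well above the line and CXCL2 and ACKR3 below it.

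Genes that process, hold or transmit chemokine signals were also followed. Of 14 genes of glycosaminoglycan and surface anchors, some of them heparan sulfate enzymes and not anchors themselves, 13 were detected, against 51.4% of protein-coding genes. Their median was 20.1 RPKM, against 0.482 RPKM over protein-coding genes. The highest were the syndecan SDC4 at 156 ± 29.3 RPKM, the heparan sulfate sulfotransferase NDST1 at 101 ± 18.6 RPKM and the syndecan SDC1 at 91.8 ± 16.7 RPKM (SD, n = 3 each), and the glypican GPC3 was listed at 0.

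Of 14 enzymes that shed or trim chemokines, 7 were detected, against 51.4% of protein-coding genes. The median of the 14 was 0.328 RPKM, against 0.482 RPKM over protein-coding genes. The highest were MMP14 at 37.1 ± 1.73 RPKM, ADAM10 at 4.72 ± 2.62 RPKM and MMP9 at 2.34 ± 0.0996 RPKM. ADAM10, a sheddase of CX3CL1 and CXCL16, had 750, 2589 and 3680 reads and was far lower in replicate 1, while ADAM17, the inducible sheddase of CX3CL1, stood at 2.03 ± 0.333 RPKM. DPP4, which trims the ends of several chemokines, had 176, 355 and 509 reads, lowest in replicate 1, and was at 2.27 ± 0.864 RPKM. MMP1, MMP2, MMP3, MMP13, CTSG and ELANE were listed at 0, and of these MMP1 is covered.

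Of 25 genes of receptor signalling and desensitisation, 16 were detected, against 51.4% of protein-coding genes. The median of the 25 was 1.5 RPKM, against 0.482 RPKM over protein-coding genes. The GTPase RAC1 stood at 187 ± 14.6 RPKM, and the G protein subunits GNB2 and GNB1 at 157 ± 39.8 and 69.0 ± 8.70 RPKM. GNG5, PIK3CG, PLCB2, RGS1, RGS2 and RGS16 were listed at 0, and GNG5, RGS1 and RGS2 are covered. Of 18 relatives outside the naming rule 6 were detected, against 51.4% of protein-coding genes. The median of the 18 was 0 RPKM, against 0.482 RPKM over protein-coding genes. The 6 were led by CD74, a receptor of the cytokine MIF as well as the MHC class II invariant chain, at 98.0 ± 8.99 RPKM. CMTM3 at 26.0 ± 3.19 and CMTM4 at 6.40 ± 0.353 RPKM, members of the chemokine-like factor family, came next. MIF itself was listed at 0 and is covered, as are RARRES2, GPR75, CKLF and CMTM1. The platelet chemokines PF4, PF4V1 and PPBP, which belong to the CXC family under other names and lie in the same chromosome 4 cluster, were at 0, as were CMKLR1 and IL16.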

How the data were processed

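Poly(A) RNA of 3 replicates was measured. The labels call them biological replicates. The submitters' processing notes name HISAT2 2.1.0, featureCounts 2.0.0, FastQC, cutadapt 1.18 and hg38. No source used here names the annotation release or counting options. Each deposited signal is, as read from the values, a read count divided by the size factor of its library. All nonzero values (100%) were whole multiples of 1 read within 0.01 of a read, with factors of 0.946, 0.971 and 1.24, and these whole reads were used. The planned design assumed raw counts. Counts of 2 outnumbered counts of 1 (1621 against 269 genes in replicate 1), and the cause was not tested. Single reads may not be independent molecules, and floors cover counting error only.

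TMM factors came from edgeR 4.0.16 under R 4.3.3. Exon unions, spans and GC content came from GENCODE 29 (GRCh38), which need not be the authors' release. It matched 58337 of 60605 genes (96.3%) and all 65 members. Exon unions include retained introns, which lowers RPKM. The pseudocount was 0.1 RPKM. All members entered the counts, 1 of them is not reported here by name, and values are given per library for those with at least 10 reads, and the 3 highest and all zeros of each companion list. ADAM17, DPP4 and the marker genes were named after their values were seen. Members and lists were chosen with earlier results of these data known, and the 5 promoter patterns after the values were seen. Promoters came from RefSeq (GRCh38.p14). No test between groups was possible. Recovery of reads was tested by dividing the recovered reads by known factors, a check that takes those reads as given. GC correction and the step rule were tested on simulated data. Alternatives were DESeq2 1.42.0 size factors, library totals, other thresholds, lengths and pseudocounts, GC correction in 20 bins, and leaving out each replicate.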

Additional observations from a re-analysis of the deposited data

How the results depend on the processing

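The number of detected chemokine genes, 11, was 6 at 10 CPM in every library and 26 with no filter (at least 1 read in some library). Leaving out 1 replicate gave 11 to 12, and the other 6 settings gave 10 to 15. The summed ligand level stayed within 1 SD of 900.1 CPM in all settings run, and was 892 to 908 CPM when 1 replicate was left out. Called steps in the order of levels were 3 of 10 at 3 SD and 3 with GC correction, 4 or 5 in the other settings of length and pseudocount, and 5 to 6 without 1 replicate. With GC correction CXCL5 over CXCL2 (1.86 ± 0.97) and ACKR3 over CXCL6 (0.46 ± 0.42) lost their calls, and the cause was not tested. At 1.5-fold without GC correction, 1 detected member differed between replicate 1 and the mean of the other 2 libraries. At 2-fold the number was 0 under each scaling and with GC correction. Replicate 3 against replicate 2, added after the data were seen, also gave 0. After GC correction CXCL5 and CXCL8 lay just short of 2-fold in replicate 1, at 0.99 each (log2). CXCL2 and ACKR3 were at -0.69 and -0.63, which is past 1.5-fold. Of 112 levels recomputed for the 16 named members, 110 stayed within 1 SD. The exceptions used the exon length outside other genes, which raised CXCL9 to 13.2 RPKM and CCR10 to 0.76 RPKM. CXCL13, at 0.152 RPKM, was 0.0603 RPKM without replicate 2. Of the other pairwise differences given, under settings chosen after the data were seen, ACKR3 over CCR10 lost its call over the exon length outside other genes (1.33 ± 0.74). No paired analysis was possible because there is 1 group. Depth limits members under about 10 reads.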
